A study of Rattus norvegicus with 23 samples.

Results

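Expression of 10666 genes was compared between MI+TRD hearts whose deposited value of the alpha-globin gene Hba2 was above 50 normalized count units and MI+TRD hearts below it. The libraries were chosen by this Hba2 value alone, which gave 3 on each side, replicates 1, 4 and 5 above (high-Hba2 libraries) and replicates 2, 3 and 6 below (low-Hba2 libraries). These 6 are of 23 libraries in the series. Each library held polyadenylated RNA of myocardium from Sprague-Dawley rats. All rats had a myocardial infarction (MI), made by tying the left coronary artery, and those of the MI+TRD group had a later operation to implant a device, called TRD and not described further in the labels. Both sides of the comparison therefore carried infarct and device, and both were taken at 12 weeks. The 6 MI libraries of 12 weeks, with infarct and no device, were not used by the rule and serve here as the reference. Neither age nor sex of the rats, nor the part of the heart sampled, is given in the labels. They number the samples but name no animals, so the spread between libraries may be technical in part.

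Alpha-globin and beta-globin chains join with haem to form haemoglobin, the oxygen carrier of red cells. In rats the alpha-globin genes stand side by side as near-identical copies, and red cell precursors transcribe them in marrow. In a sample of heart muscle these RNAs are usually read as blood retained in the tissue, where they are accompanied by beta-globin and by Alas2, the erythroid enzyme that begins haem synthesis. Libraries were set apart here on Hba2 itself, so its difference is no finding, and with earlier results of these libraries known the other differences are given as a description, without p-values.

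The Hba2 values that chose the sides were 88.3, 234 and 465 normalized count units in replicates 1, 4 and 5 and 0.498, 2.71 and 1.43 in replicates 2, 3 and 6. The value nearest above the threshold was therefore 88.3, and the nearest below it was 2.71. In the 6 MI libraries Hba2 lay between 0.809 and 25.7, with a median of 6.70. All MI libraries were thus below the threshold, and 4 of the 6 lay above every low-Hba2 library. As deposited, the Hba2 entry runs over 26485 bases on the minus strand of chromosome 10 (15577166 to 15603650, rn6). It contains the whole of the entries Hba1 (15602794 to 15603650) and Hba-a1 (15577249 to 15577978), so a read in either could be given to Hba2, and the counting rule is not given in the sources used here. RefSeq holds the 2 rat alpha-globin genes as Hba-a2 and Hba-a1, with the file's symbol Hba2 an older symbol of Hba-a2. Their 250 bases upstream of the start (GRCr8, minus strand, chr10:15829139-15829388 and chr10:15842581-15842830) are shown because they display how alike the copies are. They differ at 9 of 250 positions (96.4% identity), which are in capitals. RefSeq's Hba-a1 lies at higher coordinates than Hba-a2, while the file's Hba-a1 lies at lower coordinates than its Hba1. The same symbol may therefore not mean the same copy, and which file entry each RefSeq gene matches was not tested.
Hba-a2: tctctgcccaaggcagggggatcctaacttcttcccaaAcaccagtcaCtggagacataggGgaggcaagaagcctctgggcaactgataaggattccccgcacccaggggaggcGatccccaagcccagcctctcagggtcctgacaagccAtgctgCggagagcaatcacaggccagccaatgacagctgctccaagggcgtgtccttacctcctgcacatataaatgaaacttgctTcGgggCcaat
Hba-a1: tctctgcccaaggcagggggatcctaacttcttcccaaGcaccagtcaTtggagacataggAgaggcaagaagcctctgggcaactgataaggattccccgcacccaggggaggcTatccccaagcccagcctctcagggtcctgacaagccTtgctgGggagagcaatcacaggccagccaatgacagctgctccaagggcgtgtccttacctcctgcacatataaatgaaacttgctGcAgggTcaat

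The other globins did not divide as Hba2 did, so the libraries are called here by Hba2 and not by globin. Hba1 was 109, 254 and 353 in the high-Hba2 libraries and 343, 403 and 466 in the low-Hba2 libraries, and the sides overlapped. Hba-a1 was 1.85, 8.44 and 12.6 against 1.86, 3.02 and 2.63, with replicates 4 and 5 above all others and replicate 1 the lowest of the 6. The major beta-globin entry Hbb was 83.2, 176 and 202 against 179, 186 and 189, again with overlap. Summed over the 3 alpha-globin entries, the normalized counts were 199, 496 and 829.9 against 345, 409 and 470.0, and over the 4 beta-globin entries 163, 401 and 572 against 420.0, 440.4 and 471. Replicate 1 had the lowest sum of both kinds among the 6 libraries although its Hba2 was above the threshold. The share of alpha-globin counts under the Hba2 name holds the value that chose the sides, so its separation follows from the rule. It was 44.4%, 47.1% and 56.0% in the high-Hba2 libraries, 0.144%, 0.662% and 0.304% in the low-Hba2 libraries, and 0.543% to 10.4% in MI.

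**Figure D1:**
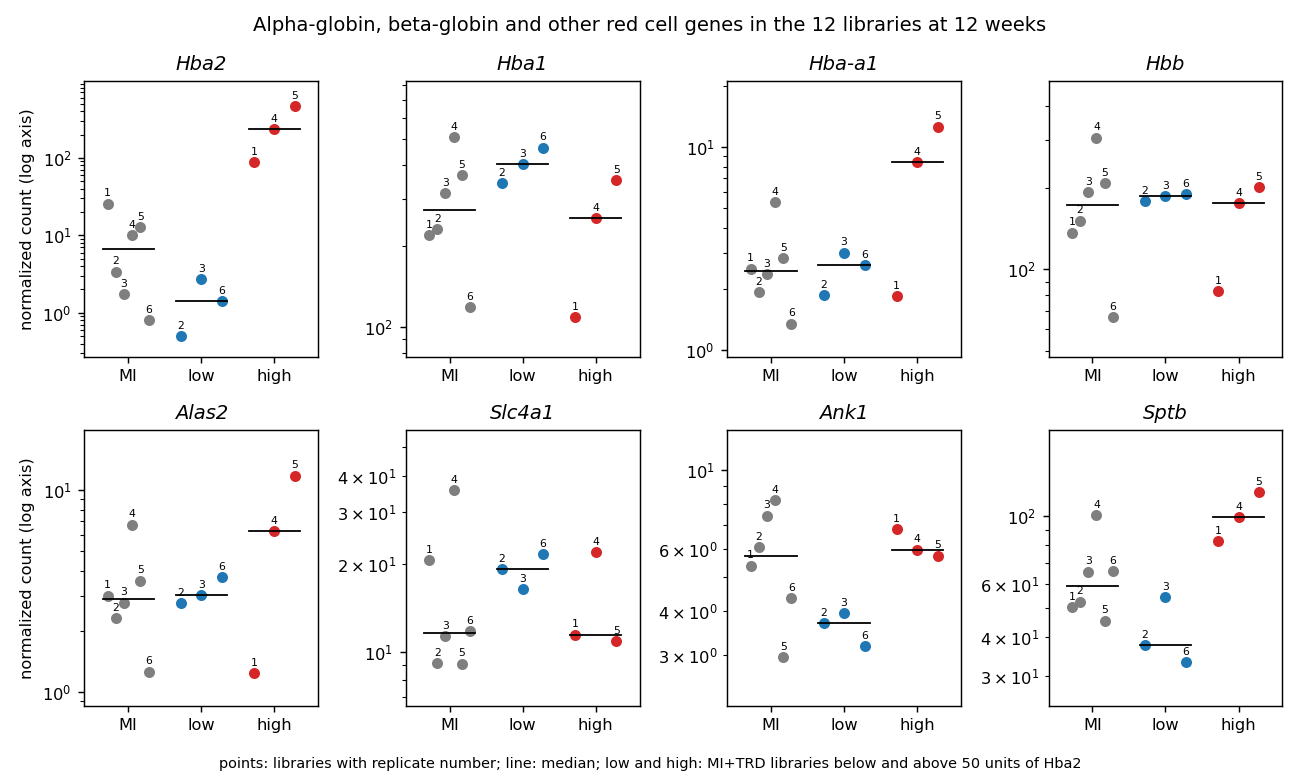
Normalized count (log axis) of 8 red cell genes in each library at 12 weeks, for MI (6), MI+TRD with low Hba2 (3) and MI+TRD with high Hba2 (3). Points are libraries with their replicate number and lines are medians. Hba2 (used for the division) separates the sides by construction, Hba1, Hba-a1, Hbb, Alas2 and Slc4a1 overlap, and Ank1 and Sptb do not.

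Of 45 red cell genes listed, 19 were in the table and all 19 passed the filter on low values. Their relative log2 differences, high minus low and set against the median gene of all 10666 (−0.037), had a median of 0.17 (0.076 without replicate 6). Those at least 2-fold higher without overlap numbered 2, or 1 without replicate 6. A total of 4 of the 19 did not overlap between the sides and all 4 were higher in the high-Hba2 libraries, where 17.8% of all genes were higher without overlap and 19.3% lower. Alas2 was 1.25, 6.28 and 11.8 against 2.75, 3.02 and 3.70, with replicate 1 lowest and replicates 4 and 5 highest. The red cell anion exchanger Slc4a1 was 11.4, 21.9 and 10.9 against 19.1, 16.4 and 21.6, with overlap. The 4 without overlap were not genes of haemoglobin synthesis. Sptb, the beta-spectrin of red cells that is also made in striated muscle, was 82.4, 99.1 and 119 against 37.8, 54.2 and 33.1, a relative log2 difference of 1.31 (SE 0.21). Xk, a membrane protein of red cells and muscle, was 2.85, 2.53 and 4.71 against 1.14, 2.46 and 1.11, a difference of 1.09 (SE 0.40). The ankyrin Ank1 differed by 0.78 (SE 0.22) and carbonic anhydrase Car2 by 0.67 (SE 0.23). The other entries of the list overlapped, with differences between −1.10 (SE 0.83) for the transcription factor Nfe2 and 0.57 (SE 0.65) for Alas2, apart from Hba-a1 at 1.24 (SE 0.59). The Nfe2 difference was −0.39 without replicate 6. Fech, which inserts the iron into haem, was 59.5, 56.2 and 56.0 against 57.8, 58.6 and 59.9, a difference of −0.00 (SE 0.11).

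The sides also differed in measures of the libraries themselves. Reads recovered from the normalized counts were 7382241, 7197121 and 10156575 in the high-Hba2 libraries, 9097198, 8024660 and 9352932 in the low-Hba2 libraries and 8869973 to 10304153 in MI. Genes with no recovered read numbered 116, 110 and 174 on the high side, 21, 41 and 12 on the low side and 27 to 72 in MI. Ribosomal RNA made up 3.01%, 4.45% and 3.66% of the total on the high side, 2.06%, 1.90% and 1.81% on the low side and 1.35% to 11.7% in MI. Pearson's r of log2 values across genes, which are not independent replicates, was 0.940 to 0.974 within the high side, 0.936 to 0.978 within the low side and 0.883 to 0.958 between them. Replicate 6 stood apart within the low side, with r of 0.936 to 0.944 to replicates 2 and 3, which had 0.978 with each other. Results that rest on it are given with and without it. The labelled tissue was checked on Myl3, the myosin light chain of ventricular and slow muscle, which was 2182, 1954 and 1758 on the high side, 3043, 3293 and 2794 on the low side and 2280, 3613 and 5109 in MI (lowest, median and highest). The atrial light chain Myl7 was 0.0999 to 614 in MI+TRD and 2.32 to 3170 in MI.

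Differences between the sides ran with the length of genome that a gene entry spans. Genes spanning up to 2 kb (354 genes) had a median relative log2 difference of −0.54, and 25.4% of them were at least 2-fold lower on the high side without overlap. The median moved step by step to 0.31 for the 776 genes of 100 to 200 kb and was 0.27 above 200 kb, where 5.91% were at least 2-fold higher. Without replicate 6 the medians were −0.52, 0.30 and 0.21. The median log2 level of genes up to 2 kb, relative to all genes and to the 12 libraries, was −0.50, −0.33 and −0.33 in replicates 1, 4 and 5, below every other library (lowest −0.0061). For genes over 100 kb it was 0.25, 0.24 and 0.29, above every other library. The part of gene span, of the genes without a read and of the ribosomal RNA share in the differences below was not tested.

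**Figure D2:**
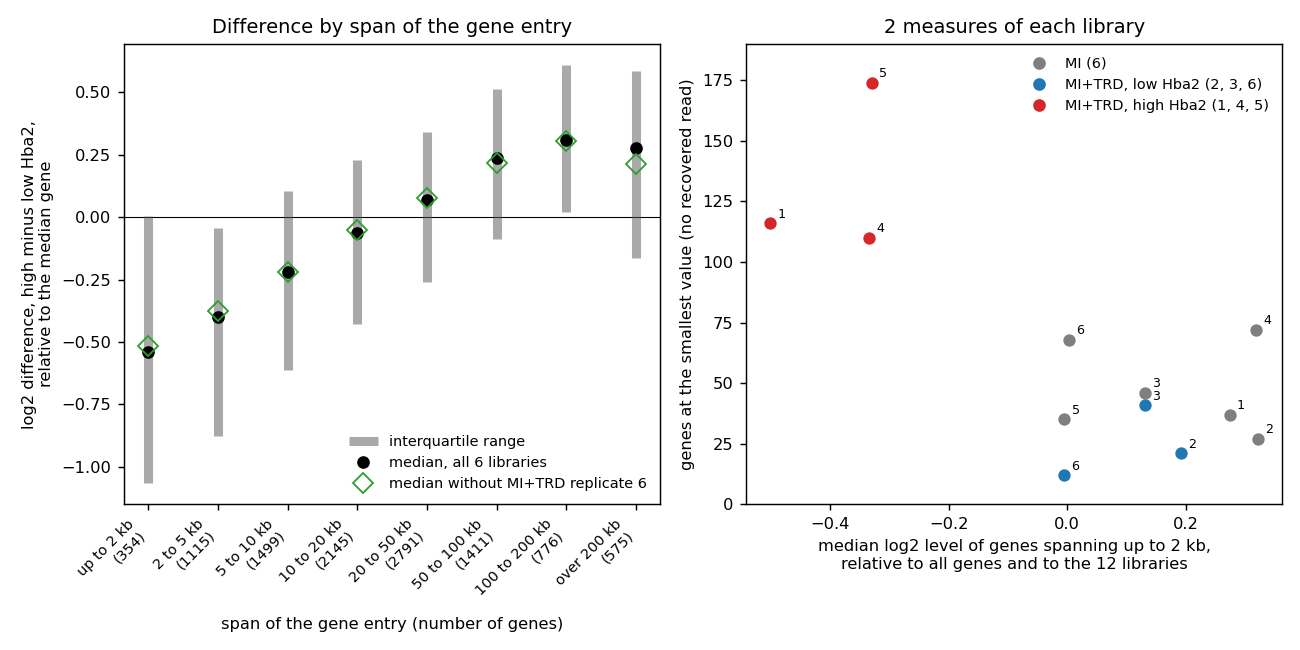
Left, median and interquartile range of the log2 differences (high minus low Hba2, relative to the median gene) for genes binned by the span of their entry, with medians without replicate 6 as diamonds. Right, number of genes at the smallest value against the median log2 level of genes up to 2 kb in each of the 12 libraries. The 3 high-Hba2 libraries sit at −0.50 to −0.33 with 110 to 174 genes without a read.

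A total of 237 genes (2.22% of 10666) were at least 2-fold higher in the high-Hba2 libraries without overlap, and 634 (5.94%) were at least 2-fold lower. Leaving out replicate 1 gave 364 higher and 740 lower genes, and leaving out replicate 3 gave 408 and 874. Without replicate 6 the counts were 264 and 634, and 182 of the 237 and 552 of the 634 were counted again. The higher genes had a median span of 59493 bases and the lower genes one of 6600 bases, against 21290.5 bases for all genes. Set against MI, the lower genes were mostly low on the high side: their median relative log2 difference from MI was −1.13 in the high-Hba2 libraries and 0.24 in the low-Hba2 libraries. All 3 high-Hba2 libraries lay outside the range of the 6 MI libraries for 417 of the 634, and all 3 low-Hba2 libraries for 19. The 237 higher genes had medians on either side of MI, 0.81 and −0.37, and the high side lay outside the MI range for 81 and the low side for 51. The first principal component of the 6 libraries carried 49.3% of their variance. Its scores were 0.38, 0.39 and 0.33 in replicates 1, 4 and 5 and −0.32, −0.08 and −0.70 in replicates 2, 3 and 6. Replicate 6 was thus the farthest from 0 and replicate 3 the nearest, and the component was not computed without replicate 6.

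The 15 lower genes with the widest gap between the sides held 5 genes of the respiratory chain and its assembly. Atp5i (chromosome 14, 2325308 to 2326437), the e subunit of ATP synthase, was 14.5, 14.1 and 11.6 against 128, 119 and 136, and 49.5, 133 and 219 in MI (lowest, median and highest). All high-Hba2 libraries lay below the MI range, and the relative log2 difference was −3.20 (SE 0.14). Uqcrb and Uqcr11, subunits of cytochrome bc1, were 20.6, 21.2 and 20.3 against 107, 96.5 and 97.6 and 52.6, 42.5 and 27.8 against 295, 232 and 251. Ndufa1 of complex I was 8.54, 5.70 and 4.79 against 90.1, 49.5 and 56.3, and Ndufaf8, an assembly factor of that complex, was 8.89, 9.39 and 7.77 against 37.6, 34.5 and 35.5. The small RNA polymerase II subunit Polr2l was 5.60, 4.75 and 4.28 against 58.7, 42.2 and 44.4, and Cops9 of the COP9 signalosome was 6.99, 5.96 and 4.39 against 65.0, 43.9 and 45.8. Rpl36 of the large ribosomal subunit was 6.84, 7.12 and 5.73 against 42.1, 34.4 and 47.7. For all of these the high side was below every MI library. The metallothionein Mt1, which binds zinc and copper, was 0.899, 0.316 and 0.745 against 8.13, 5.48 and 5.05, with MI between them at 2.17, 3.04 and 4.46. The membrane protein gene Tmem256 and the LIM protein gene Crip1 had differences of −2.25 (SE 0.24) and −3.03 (SE 0.35). Entries of up to 10 kb made up 12 of the 15 genes, and for 11 of the 15 all high-Hba2 libraries lay outside the MI range. The entries of Ndufa1 and Polr2l ran over 713677 and 438916 bases. An entry's span need not be the length of 1 gene, as the Hba2 entry shows, and this was not tested for other entries.

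For Cxcl1, Ptx3 and Has1, also among the 15, the MI libraries reached from the values of the high side into those of the low side. For Ptx3 and Has1 only MI replicate 1 reached the low side, and the next highest MI values were 4.74 and 8.78. Cxcl1 (chromosome 14, 18743678 to 18745458), a chemokine that attracts neutrophils, was 0.649, 1.27 and 2.28 against 14.3, 47.0 and 37.2, and in MI 0.540, 9.02 and 30.8. Its relative log2 difference was −4.32 (SE 0.49). Ptx3, a soluble pattern recognition protein, was 0.749, 0.633 and 2.79 against 15.8, 32.5 and 18.7, and in MI 0.226, 2.05 and 19.0. Has1, a hyaluronan synthase, was 1.35, 1.58 and 1.96 against 34.4, 20.7 and 13.2, and in MI 0.649, 3.93 and 19.1. Serpinb2, an inhibitor of plasminogen activators, had no recovered read in the 3 high-Hba2 libraries and was 1.10, 1.02 and 22.5 on the low side, where replicate 6 was far above the others. No fold is given for Serpinb2. Other genes, picked after their values were seen, were Il6, a cytokine of the acute phase, at 0.05, 1.37 and 1.02 against 6.61, 15.6 and 5.13, Tnfaip6, a hyaluronan-binding protein, at 2.20, 0.316 and 2.71 against 10.2, 9.80 and 21.3, and Nfkbiz, a nuclear NF-kB regulator, at 3.45, 4.80 and 4.67 against 22.8, 17.8 and 47.5. The chemokine Ccl2 was 0.150, 1.48 and 2.31 against 4.28, 12.5 and 12.0. These 4 did not overlap between the sides, while Tnfrsf11b, a decoy receptor picked in the same way, was 2.85, 2.06 and 16.2 against 7.29, 5.43 and 24.8 and overlapped.

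**Figure D3:**
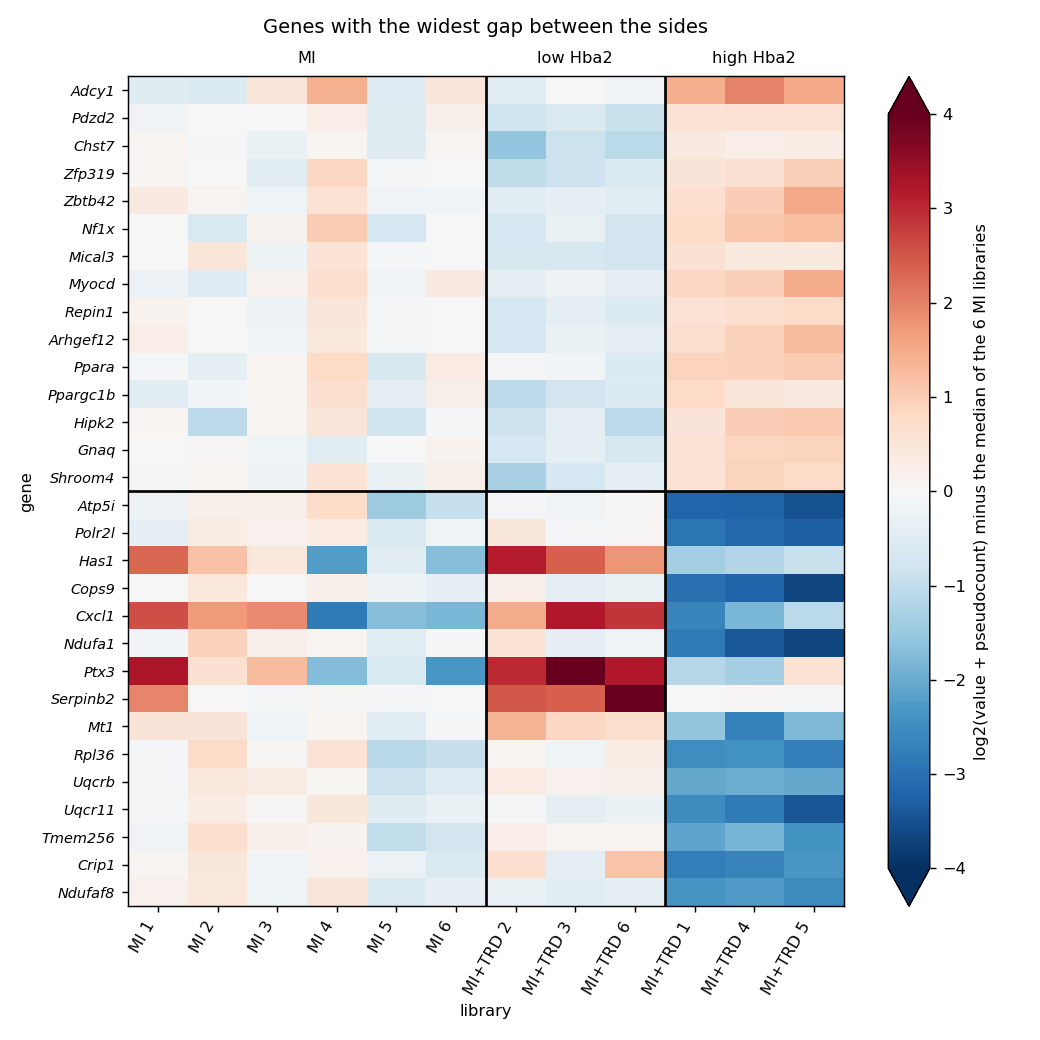
Log2(value + pseudocount) minus the median of the 6 MI libraries for the 15 higher (top) and 15 lower (bottom) genes with the widest gap between the sides, one column per library. The lower block is blue (below the MI median) in the 3 high-Hba2 libraries, apart from Serpinb2 and from Ptx3 in replicate 5, and Has1, Cxcl1 and Ptx3 also vary among the MI libraries.

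Of the 15 higher genes with the widest gap, 11 spanned over 50 kb. Adcy1 (chromosome 14, 87312230 to 87421462), an adenylyl cyclase stimulated by calcium and calmodulin, was 9.84, 14.4 and 10.3 against 2.54, 3.53 and 3.18, and in MI 2.33, 3.72 and 9.78. All 3 high-Hba2 libraries lay above every MI library, by a small margin over the highest, and the relative log2 difference was 1.87 (SE 0.23). Myocd, the coactivator of serum response factor in cardiac and smooth muscle, was 29.3, 32.5 and 46.8 against 12.7, 14.4 and 12.5, with MI at 11.5, 16.6 and 26.3. Ppara, a nuclear receptor that drives fatty acid oxidation, was 16.8, 17.0 and 18.2 against 8.60, 8.22 and 6.09, and Ppargc1b, a coactivator of mitochondrial genes, was 28.5, 22.9 and 21.2 against 7.92, 9.71 and 10.9. Their relative log2 differences were 1.22 (SE 0.18) and 1.37 (SE 0.18). The G protein subunit Gnaq was 5.35, 6.59 and 6.79 against 2.16, 2.74 and 2.19, and Arhgef12, an exchange factor of small GTPases, was 52.8, 61.6 and 79.2 against 20.2, 27.2 and 24.9. Hipk2, a nuclear kinase, was 106, 146 and 153 against 41.2, 55.8 and 35.4, and Mical3, an actin-oxidising protein of vesicle transport, was 95.1, 81.2 and 81.8 against 39.6, 39.9 and 37.4. Pdzd2, a PDZ protein, and Shroom4, an actin-binding protein, differed by 1.35 (SE 0.13) and 1.57 (SE 0.26). The sulfotransferase Chst7 differed by 1.52 (SE 0.28), the zinc finger genes Zfp319, Zbtb42 and Repin1 by 1.54 (SE 0.26), 1.52 (SE 0.28) and 1.25 (SE 0.22), and the entry Nf1x by 1.61 (SE 0.20). Those 3 zinc finger genes were the ones of up to 10 kb among the 15.

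Most respiratory chain subunits were lower without overlap. Of 44 genes of complexes II to V that were kept (63 listed), 25 were at least 2-fold lower without overlap and 0 higher, beside 5.94% of all genes lower, and 38 were lower without overlap. Their median relative log2 difference was −1.19, and −1.29 without replicate 6. Atp5b, the catalytic beta subunit of ATP synthase and the most abundant of the list, was 1679.8, 1021 and 980.3 against 3407, 2768 and 2336, a difference of −1.20 (SE 0.26). Atp5a1, the alpha subunit beside it in the enzyme, was 1478, 1127 and 1173 against 1512, 1625 and 1228 and overlapped. The cytochrome c oxidase subunits Cox8b and Cox7c, picked after their values were seen, were 64.7, 60.8 and 37.9 against 233, 245 and 206 and 125, 137 and 125 against 533, 474 and 393. The muscle subunit Cox6a2 was 428, 425 and 621 against 958, 911 and 768. Of 35 complex I genes (38 listed) 26 were lower without overlap, 10 of them by at least 2-fold, and 0 were higher, with a median of −0.56, and Ndufa4 differed by −0.64 (SE 0.16). Over all genes 19.3% were lower without overlap. Up to 10 kb were spanned by 34 of the 44 genes and by 21 of the 35. The 2-fold lower share of all genes was 25.4% up to 2 kb, 15.1% at 2 to 5 kb and 10.2% at 5 to 10 kb. Against MI the median of complexes II to V was −1.20 on the high side and −0.05 on the low side, and that of complex I was −0.80 and −0.13.

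Ribosomal proteins followed the same direction in both compartments. In the cytosolic ribosome, 29 of 82 kept genes (92 listed) were at least 2-fold lower without overlap and 0 higher, with a median of −0.77. The lower share was 5.94% of all genes, 25.4% of those spanning up to 2 kb, 15.1% at 2 to 5 kb and 10.2% at 5 to 10 kb. Rpl41 and Rpl37, 2 small proteins of the large subunit picked after their values were seen, were 20.9, 27.3 and 46.4 against 144, 118 and 186 and 33.0, 44.9 and 59.7 against 201, 149 and 199.8. The 3 most abundant members moved less: Rplp0 was 314, 282 and 367 against 408, 384 and 464, Rpl7a was 250.2, 259 and 289 against 291, 299 and 319, and Rpsa, at 193, 231 and 344 against 274, 259 and 317, overlapped. In the mitochondrial ribosome 15 of 67 kept genes (96 listed) were counted as lower and 1 as higher, with a median of −0.50. Mrpl12 was 83.4, 79.7 and 53.0 against 131, 118 and 102, and Mrpl17 was 33.4, 35.4 and 34.4 against 63.6, 60.9 and 59.1. The exception was Mrps10, at 2.25, 3.11 and 5.77 against 1.14, 0.975 and 0.995. Of the 82 cytosolic genes 78 spanned up to 10 kb, and of the 67 mitochondrial genes 44.

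Muscle genes lay in both directions. Of 25 kept ventricular genes 8 were higher and 5 lower without overlap, beside 17.8% and 19.3% of all genes, with a median of 0.14 (0.0017 without replicate 6, −0.063 after quantile normalization). Myh6, the alpha-myosin heavy chain of atria and ventricles, was 19031, 19852 and 13923 against 11182, 13056 and 7296, a difference of 0.81 (SE 0.36), and −0.063 after quantile normalization. The median gene differed by 0.063 under that scaling, so −0.063 stands for no difference before this median was taken off. Quantile normalization gives equal ranks equal values, so it can hardly show differences among the most abundant genes. The sarcoplasmic calcium pump Atp2a2 was 7433, 8400.4 and 7779.9 against 5097, 6025 and 3697, a difference of 0.74 (SE 0.28) that became 0.19 after quantile normalization, and the slow myosin Myh7, at 13142, 10276 and 22960.4 against 7385, 10089 and 10666, overlapped. In the other direction Mb, the oxygen-binding myoglobin, was 3286, 2304 and 1631 against 6637, 5753 and 5227, and Tcap, the titin cap of the Z-disc, was 119, 101 and 119 against 343, 282 and 317. The median span was 36683 bases for the 8 higher genes and 6123 bases for the 5 lower ones. Mb and Tcap were picked after their values were seen, and they were the only 2 of the list counted as 2-fold different. The release channel Ryr2 was 1288, 1235 and 1229.6 against 794, 935 and 580.0.

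Fuel metabolism lists had medians a little below 0, and lower ones without replicate 6. Of 37 genes of fatty acid uptake and oxidation 4 were higher and 12 lower without overlap, and 4 were counted as lower and 1, Ppara, as higher, with a median of −0.12 (−0.31 without replicate 6). Fabp3, the heart fatty acid binding protein, was 573, 491 and 334 against 1036, 1012 and 900.2, a difference of −1.07 (SE 0.21). Lpl, the lipase that frees fatty acids from lipoproteins at the vessel wall, was 1889, 1822 and 1702 against 1007, 1267 and 954, a difference of 0.79 (SE 0.18). Of the 26 citrate cycle genes 4 were higher and 7 lower without overlap, none by 2-fold, beside 17.8% and 19.3% of all genes, with a median of −0.12 (−0.35 without replicate 6). Idh2 was 979.8, 906 and 791 against 996, 1037 and 846, with overlap. Glycolysis had 6 genes higher and 4 lower of 26, near those shares and none by 2-fold, with a median of −0.11 (−0.20 without replicate 6), and Gapdh, at 961, 1068 and 854 against 909, 1021 and 879.8, overlapped.

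Macrophage genes gave the lowest median of the lists. Of 29 kept genes (31 listed) 19 were at least 2-fold lower without overlap and 0 higher, beside 5.94% and 2.22% of all genes, and the median was −2.14. Without replicate 6 it was −1.33, with 16 counted as lower. In bulk tissue, fewer cells of a type and less RNA per cell cannot be told apart. Lyz2, the lysozyme of macrophages, was 17.7, 16.8 and 27.9 against 74.7, 42.2 and 1556, and in MI 23.3, 44.0 and 80.9. Replicates 2 and 3 lay within the MI range and replicate 6 far above it. The relative log2 difference of Lyz2 was −3.02 (SE 1.09), and −1.47 without replicate 6. Cd74, the invariant chain of MHC class II, was 78.8, 60.1 and 60.7 against 179, 153 and 432, and in MI 129, 166 and 216. All 3 high-Hba2 libraries were below every MI library for Cd74. Gpnmb, a gene of lipid-laden macrophages, was 5.10, 4.17 and 8.47 against 10.5, 7.62 and 255 and overlapped. The complement gene C1qa, picked after its values were seen, was 4.45, 3.01 and 6.36 against 31.9, 11.7 and 88.4, and in MI 8.99, 16.04 and 23.4. Summed over the list, normalized counts were 161 to 236 on the high side, 360 to 3418 on the low side and 262 to 530 in MI. Against MI the list's median was −0.67 on the high side and 1.49 on the low side, or 0.57 without replicate 6. The list's mean log2 level, relative to the median gene and to MI, was −0.84, −0.84 and −0.18 in replicates 1, 4 and 5. In replicates 2, 3 and 6 it was 0.94, 0.22 and 3.25. MI libraries ran from −0.45 to 0.52, so by this measure replicates 5 and 3 lay within the MI range.

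Other leukocyte lists held few genes. Of 8 kept genes of neutrophils and mast cells 4 were counted as lower and 0 as higher, beside the same shares of all genes, with a median of −1.56 (−1.04 without replicate 6). S100a9, a subunit of the neutrophil protein calprotectin, was 0.250, 0.475 and 1.61 against 3.43, 4.64 and 2.82, while Lcn2, at 2.10, 2.95 and 4.71 against 7.71, 4.41 and 17.6, overlapped. The mast cell receptor Kit was 4.85, 5.33 and 8.43 against 3.09, 3.53 and 4.73, higher without overlap. Of 7 lymphocyte genes 0 were without overlap in either direction, with a median of −0.05.

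Genes that answer stimuli within minutes were in part lower on the high side. Of 28 immediate early genes 14 were lower without overlap (19.3% of all genes), 10 of them by at least 2-fold (5.94% of all), and 0 were higher, with a median of −0.94 (−1.02 without replicate 6). The 2-fold lower share of all genes was 25.4% up to 2 kb, 15.1% at 2 to 5 kb and 10.2% at 5 to 10 kb. Up to 10 kb were spanned by 24 of the 28 immediate early genes, and the 14 lower ones had a median span of 2673.5 bases. The most abundant members overlapped: the phosphatase gene Dusp1 was 154, 178 and 179 against 206, 145 and 349.6, Btg2 was 61.1, 82.5 and 139.7 against 256, 130.5 and 122, and Jund was 110.3, 157 and 164 against 83.4, 84.6 and 124. Fos and Egr1, transcription factors picked after their values were seen, were 4.65, 16.9 and 16.5 against 61.5, 18.7 and 115 and 10.6, 28.3 and 26.8 against 95.7, 40.3 and 32.1. Atf3, a transcription factor picked in the same way, was 5.25, 9.23 and 24.9 against 44.4, 21.5 and 31.9 and overlapped. MI libraries spread across both sides for Fos and Egr1, at 2.94, 23.2 and 49.1 for Fos and 6.86, 36.2 and 55.9 for Egr1. Among 20 genes of cardiac stress 4 were counted as lower and 0 as higher, with a median of −0.42. Nppa, the atrial natriuretic peptide, was 45.5, 172 and 265 against 2166, 282 and 944, and in MI 139, 1261 and 6586, a difference of −2.67 (SE 0.77). Nppb, the ventricular natriuretic peptide, was 71.9, 126 and 55.8 against 297, 156 and 193. Atrial muscle varied within both groups, since Myl7, the atrial myosin light chain, was 0.0999, 0.475 and 33.9 against 614, 2.37 and 2.47 and reached 3170 in MI. Its part in the Nppa values was not tested. Ankrd1, a stretch-responsive gene of heart muscle, was 2442, 3599 and 4165 against 3559, 3643 and 3493 and overlapped.

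Vessel wall genes were the marker list furthest in the other direction. Of 17 genes of smooth muscle and pericytes 8 were higher and 1 lower without overlap (17.8% and 19.3% of all genes), 3 and 1 of them by 2-fold (2.22% and 5.94% of all), with a median of 0.63 (0.72 without replicate 6). The list's mean log2 level, relative to the median gene and to MI, was −0.28, 0.20 and 1.05 in replicates 1, 4 and 5 and −0.40, −0.27 and −0.37 in replicates 2, 3 and 6, so replicate 1 lay within the low side and replicate 5 was far the highest. Myh11, the smooth muscle myosin, was 79.4, 133 and 389 against 37.0, 46.8 and 40.4, and in MI 50.9, 77.2 and 84.4. Replicate 5 held most of the height of that side, and replicate 1 lay within the MI range. The potassium channel regulator Abcc9 was 122, 123 and 147 against 65.6, 94.3 and 65.9, and desmin, Des, was 1209, 1424 and 1867 against 1039, 1208 and 873. Both are listed here as vessel wall markers, but bulk tissue does not show which cells, heart muscle included, their RNA came from. Notch3, a receptor of mural cells picked after its values were seen, was 39.3, 57.8 and 52.5 against 17.3, 25.8 and 25.2, and the one lower gene, Higd1b, was 2.10, 1.95 and 3.41 against 6.82, 5.85 and 6.48. Of 27 endothelial genes 12 were higher and 6 lower without overlap, with a median of 0.27 (0.44 without replicate 6). The VEGF receptor Flt1 was 290.2, 261 and 235 against 187, 196 and 164, and its relative Kdr, picked after its values were seen, was 156, 179.6 and 169 against 54.5, 90.0 and 80.2. The tight junction gene Cldn5 was 35.4, 40.1 and 22.9 against 123, 77.8 and 73.2, in the opposite direction within the same cell type. The water channel Aqp1 was 622, 744 and 460.0 against 561, 474 and 491 and overlapped. Among endothelial genes the median span was 62831 bases for the 12 higher and 7799 bases for the 6 lower.

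Connective tissue genes had medians nearer to 0 once replicate 6 was left out, but not for each member. The median of 20 fibroblast genes was −0.58, and −0.20 without replicate 6, with 3 and 4 counted as lower and 0 as higher, beside 5.94% and 2.22% of all genes. For 36 genes of the scar matrix it was −0.49 and −0.12, with 4 counted as lower in both. Fn1, fibronectin, was 21.4, 23.7 and 55.5 against 47.3, 24.2 and 1366, so that replicate 6 alone stood apart, and its difference of −1.89 (SE 1.24) became −0.16 without it. The collagen gene Col3a1 was 289, 243 and 486 against 329, 229.8 and 986, and its difference changed sign from −0.34 to 0.23. Gsn, gelsolin, was 813, 519 and 647 against 1262, 1024 and 857, and its difference went from −0.64 to −0.82 without replicate 6. Decorin, Dcn, was 238, 212 and 317 against 425, 319 and 278, and its difference went from −0.37 to −0.55. Epicardial genes had a median of −1.05 over 14 (−0.99 without replicate 6), with 3 counted as lower and 0 as higher. Against MI the median of that list was 0.43 on the high side and 1.42 on the low side. Its mean log2 level, relative to the median gene and to MI, was 0.17, −0.16 and 1.23 in replicates 1, 4 and 5. In replicates 2, 3 and 6 it was 1.72, 1.06 and 2.20. MI libraries ran from −0.31 to 0.26, so on the high side only replicate 5 lay above them. Wt1, a transcription factor of the epicardium, was 15.2, 14.9 and 8.98 against 25.2, 14.6 and 23.7 and overlapped.

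**Figure D4:**
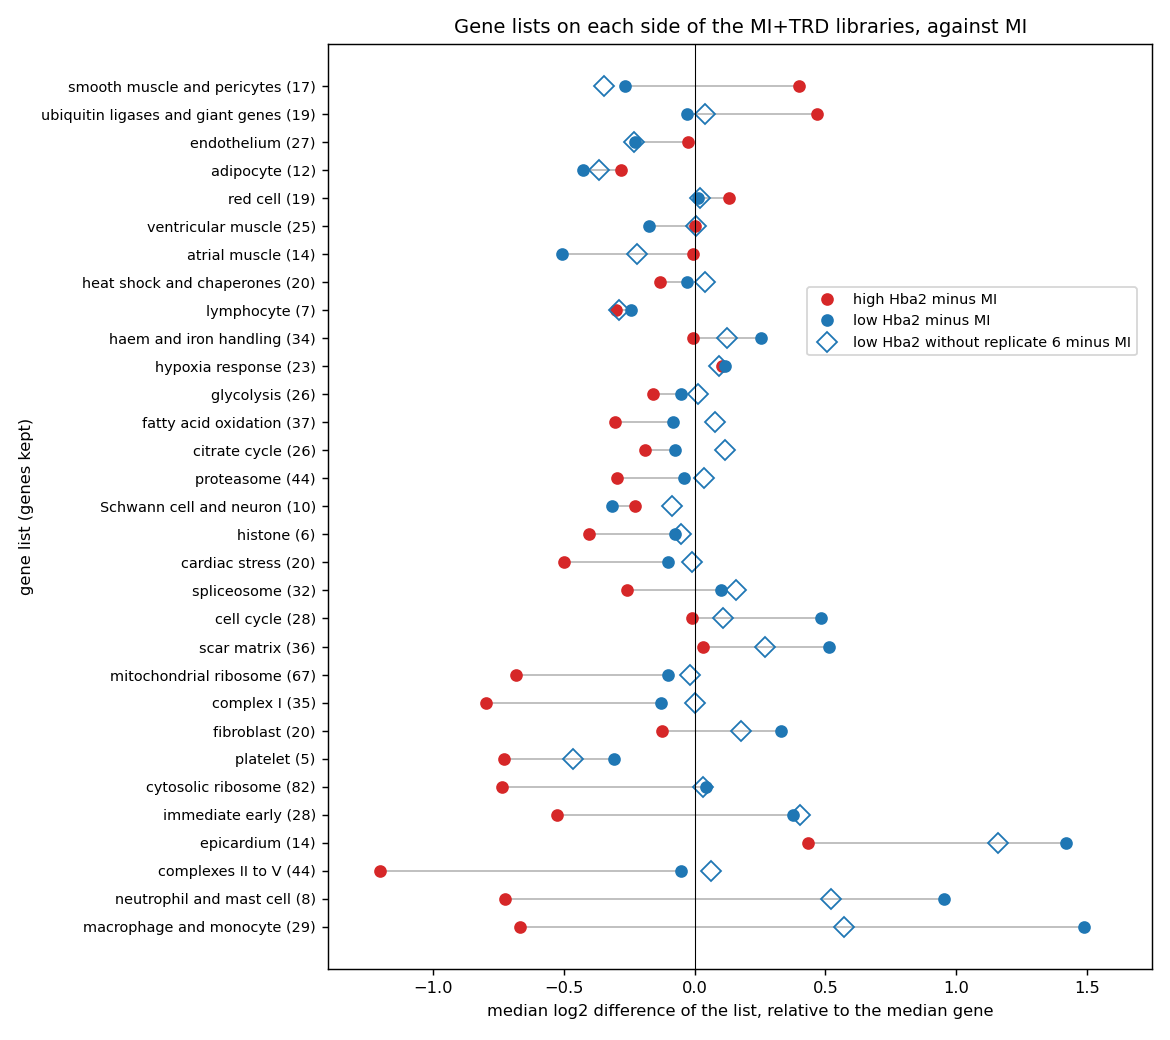
Median log2 difference from MI, relative to the median gene, of each gene list in the high-Hba2 and low-Hba2 libraries, with the low side also shown without replicate 6. Complexes II to V lie at −1.20 on the high side and −0.05 on the low side, and macrophage genes at −0.67 and 1.49 (0.57 without replicate 6).

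Whether genes follow Hba2 was tested in the 6 MI libraries, which the rule did not use. Over them log2 Hba2 was entered as a continuous term for each gene. The limma slopes gave 0 genes (0%) past an adjusted p of 0.05, with 0.808 as the lowest adjusted p. At an unadjusted limma p below 0.05, 497 genes had a positive slope (4.66%) and 93 a negative one (0.872%). This split depended on the scaling, with 224 positive and 169 negative at equal totals and 359 and 209 with the library median subtracted. edgeR's quasi-likelihood test on recovered reads also called 0 genes, with a lowest adjusted p of 0.906 and 345 positive and 195 negative slopes at an unadjusted p below 0.05. Leaving out MI replicate 2, limma called 1 gene. Hba2 reached at most 25.7 in MI, so this test covers only values below the threshold.

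The MI slopes were also counted among the genes that differed between the sides. Of the 237 higher genes 3 had a positive slope on Hba2 at an unadjusted limma p below 0.05 (1.27%) and 6 a negative one (2.53%). Of the 634 lower genes 57 had a positive slope (8.99%) and 1 a negative one (0.158%). The shares over all genes were 4.66% positive and 0.872% negative. These counts used the deposited scaling only. Across all genes, which are not independent replicates, the MI slope and the difference between the sides had a Pearson's r of −0.244. The median MI slope, relative to the median gene, also ran with span, from 0.028 for genes up to 2 kb to −0.022 above 200 kb. The part of span in this r was not tested. In named members, the relative log2 difference of Atp5i between the sides was −3.20 (SE 0.14), while its MI slope was 0.01 per log2 unit of Hba2. For Cxcl1 the MI slope was 0.11 and for Adcy1 −0.12, and none of these passed the test. The smallest p in MI belonged to Cacna1h, a T-type calcium channel, whose slope was 0.54 and did not pass the adjustment. It was 15.99, 21.8 and 31.7 against 27.9, 14.0 and 16.5 between the sides, with overlap. Next came Loxl1, an enzyme that crosslinks elastin (slope 0.31), and Pmepa1, an inhibitor of TGF-beta signalling (slope 0.37). Positive slopes also led for Bex1 (0.30) and Rec114 (0.59), and negative slopes for Ppm1k (−0.26), Cul5 (−0.25), Bmpr1a (−0.26), B3galt2 (−0.30) and Mob1b (−0.34). Bmpr1a, a receptor of bone morphogenetic proteins, was 18.4, 18.4 and 20.3 against 11.1, 13.2 and 10.5 between the sides, which did not overlap.

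Library measures were set against log2 Hba2 over the same 6 MI libraries, as a family of 4 with two-sided exact permutation over 720 pairings. Pearson's r was 0.53 for Hbb (exact permutation p = 0.281, Benjamini-Hochberg adjusted 0.499), with Spearman's rho of 0.314 (p = 0.564). For genes without a read r was −0.32 (exact permutation p = 0.499, adjusted 0.499) and rho −0.314 (p = 0.564). The ribosomal RNA share had r of 0.49 (exact permutation p = 0.338, adjusted 0.499) and rho 0.371 (p = 0.497). The level of genes up to 2 kb had r of 0.39 (exact permutation p = 0.433, adjusted 0.499) and rho 0.0857 (p = 0.919). None of the 4 passed the adjustment. Without MI replicates 6 and 1, the 2 farthest from the median of Hba2, r was 0.577, 0.278, −0.489 and −0.194, so the sign of all but the first rested on those libraries.

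**Figure D5:**
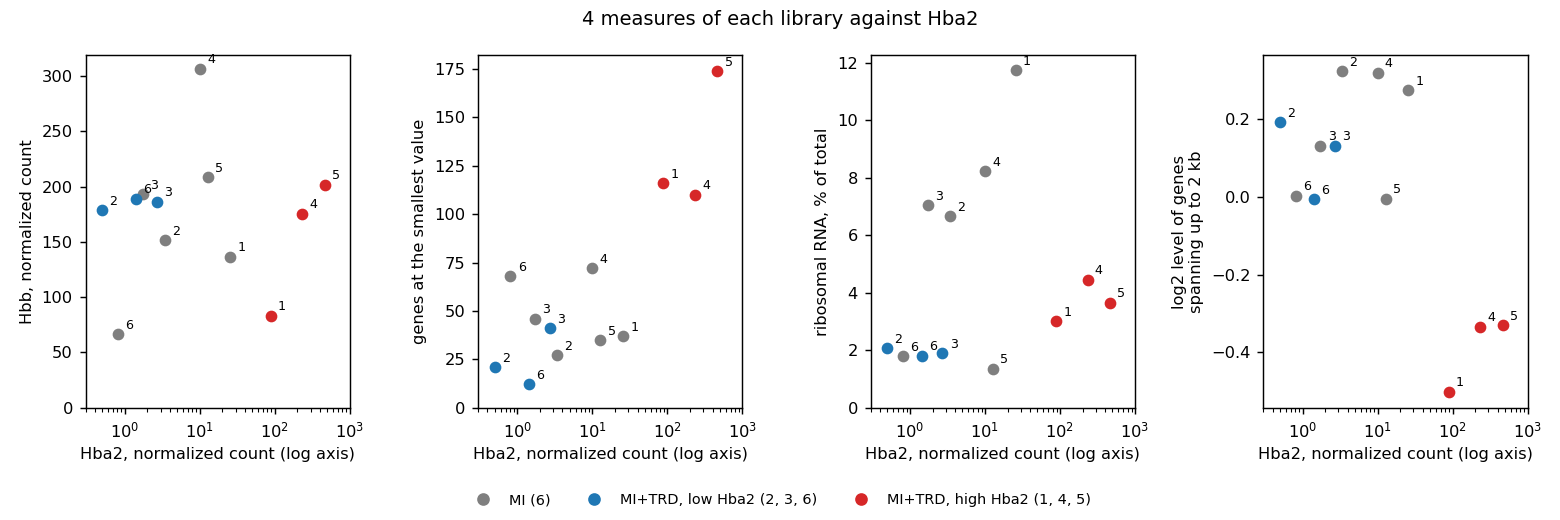
Hbb, number of genes at the smallest value, ribosomal RNA share and level of genes up to 2 kb in each library against Hba2 (log axis). The 3 high-Hba2 libraries hold 110 to 174 genes at the smallest value, against 12 to 72 in the other 9, and the 6 MI points show no relation past the test.

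At 6 weeks, values were taken from the authors' deposited table of group means. In the authors' deposited table Hba2 had a mean of 28.5 in MI+TRD (5 samples) and 290.6 in MI (6 samples), a ratio of 0.0979. The same authors' deposited table gives ratios of 0.862 for Hba1, 0.481 for Hba-a1, 0.809 for Hbb and 0.600 for Alas2. At 12 weeks the means of Hba2 over the sides were 262 ± 190 (SD, n = 3) and 1.55 ± 1.11 (SD, n = 3), with replicates 1, 4 and 5 on one side and 2, 3 and 6 on the other. The tables of the 2 times were normalized separately, so their levels are not compared.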

How the data were processed

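Per the labels, Illumina sequencing was used on polyadenylated RNA. Partek and the build rn6 are named in the submitters' processing notes. Aligner, counting rule, annotation and scaling were not given in the sources used here. The deposited signal is a normalized count per gene and library, per the file headers; the authors' 6-week table gives least-squares means and their ratio, per the file headers. Low values (up to 20 times the smallest) were whole multiples of a library's smallest value, within 0.1, for 97.2% to 98.6% of values. A value divided by the smallest, minus 1, was therefore taken as reads, so values stand on counts of reads but the text uses the deposited unit. For counting error only, 0 reads leave room for up to 3.

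Values were used as log2(value + 0.183), which understates changes of low genes, for genes with a mean of at least 0.366 over the 12 libraries (10666 of 10723, with Hba2 left out and 56 removed). Differences are means of 3 against 3 libraries minus that of the median gene, with the standard error of 1 limma fit (limma 3.58.1, R 4.3.3). Genes were counted when the sides did not overlap and differed at least 2-fold. MI slopes used limma with a trended prior and, added after the data were seen, edgeR 4.0.16, both with Benjamini-Hochberg adjustment and checked on simulated data. Named genes were the measured red cell genes, the 15 widest gaps per direction (symbols, mean of at least 2), up to 3 most abundant members of each list and the 5 smallest p per direction in MI. Members and lists were chosen with earlier results of these data known. Values of a few genes are not reported here. Pseudocounts, filters, scalings and left-out libraries were varied. Reads of overlapping genes or of near-identical copies may be shared between entries.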

Additional observations from a re-analysis of the deposited data

Results flagged for a closer look

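A library was flagged where its value (log2 for genes) lay far from the other 5 of its group, judged by its gap to the nearest library divided by the range of the group (Dixon's test at the 95% level). Of 170 such tests over library measures, gene list means and the red cell and widest-gap genes, 5 passed, and chance flags about 1 in 20 groups, which is more than were found. Hba2 and the widest-gap genes split the MI+TRD libraries 3 against 3 by choice, so that rate does not hold for them there. Among MI+TRD libraries, replicate 1 was lowest for Hbb (gap 0.844 of the range) and for the beta-globin entry LOC100134871 (0.678). Replicate 5 was highest for Bpgm, which makes the haemoglobin regulator 2,3-bisphosphoglycerate (0.653), and replicate 4 for Tal1, a transcription factor of blood and vessel cells (0.802). Among MI libraries, replicate 1 was highest for Serpinb2 (0.958).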

How the results depend on the processing

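The number of genes at least 2-fold higher on the high-Hba2 side was 237, and it was 154 with a pseudocount of 16 smallest values, 146 with a filter of 80 smallest values and 1027 at 1.5-fold, where the lower genes numbered 1253 in place of 634. Leaving out each MI+TRD replicate in turn gave 204 to 408 higher and 620 to 874 lower genes. Other pseudocounts, filters and scalings kept both counts within 1.5 times. The share of higher genes without overlap was 17.8%, and 21.2% after quantile normalization, where 288 were counted higher and 594 lower. For the 30 widest-gap genes, 380 of 388 values under alternatives moved by less than the spread between libraries and 0 changed sign. Those 30 were picked for wide gaps in the same libraries, so their signs could hardly change. Of 415 values for lists 17 changed sign, and of 1420 for other named genes 43. The MI test gave 0 to 1 called genes when each MI replicate was left out (1 without replicate 2) and 0 under every other setting run, including edgeR. Without the 2 MI libraries farthest in Hba2, r became 0.278 for genes without a read, −0.489 for the ribosomal RNA share and −0.194 for genes up to 2 kb. The cause of these shifts was not tested. No paired analysis was possible because the high-Hba2 and low-Hba2 libraries share no replicate numbers and the MI test has 1 group. With 3 libraries a side and up to 174 genes without a read, differences of low genes are uncertain.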

Other observations

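Further gene groups gave values that belong to none of the sections above. Long genes of ubiquitin ligases, scaffolds and chromatin proteins had a median relative log2 difference of 0.43 over 19 kept genes, with 14 higher and 0 lower without overlap and 1 counted as 2-fold higher. Over all genes 17.8% were higher and 19.3% lower without overlap, and 2.22% were counted as 2-fold higher. Of these 19 genes 0 spanned up to 10 kb, and all genes of 100 to 200 kb had a median of 0.31. Dync1h1, the heavy chain of cytoplasmic dynein, was 277, 309.7 and 320.2 in the high-Hba2 libraries and 151, 157 and 166 in the low-Hba2 libraries. Macf1, a spectraplakin, was 214, 149.9 and 148 against 156, 167 and 144 and overlapped. Splicing factors had a median of −0.45 over 32, with 4 higher and 15 lower without overlap. Srrm2, a large spliceosome scaffold, was 275, 288 and 288 against 181, 187 and 198, and Hnrnpu, which binds nuclear RNA, was 123, 117 and 103 against 142, 132 and 127. The median span was 28624.5 bases for the 4 higher and 7551 bases for the 15 lower splicing genes. Proteasome genes had a median of −0.20 over 44, with 2 higher and 19 lower without overlap. The 2 higher ones were the regulatory subunits Psmd1 (95.7, 113 and 116 against 78.1, 87.0 and 63.5) and Psmd2 (126, 149 and 149 against 101, 107 and 101).

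Of 34 genes of haem and iron handling 3 were counted as lower and 0 as higher, beside 5.94% and 2.22% of all genes. Their median was −0.10. Fth1, the ferritin heavy chain that stores iron, was 319.6, 306 and 348 against 607, 510.2 and 829.7, without overlap. Hmox1, which breaks down haem and was picked after its values were seen, was 6.99, 6.38 and 4.90 against 18.5, 11.2 and 34.2, and in MI 5.96, 7.90 and 15.03. Both metallothioneins, Mt1 and Mt2A, were the other members counted, with Mt2A at 0.05, 0.264 and 1.84 against 11.7, 7.34 and 7.16. Hypoxia response genes had a median of −0.11 over 23, with 4 higher and 5 lower without overlap, near the 17.8% and 19.3% of all genes, and Vegfa was 469.7, 381 and 308 against 539.7, 403 and 467. Fat cell genes had a median of 0.18 over 12, nerve genes −0.25 over 10, histone genes −0.29 over 6 and chaperones −0.05 over 20, and each of these had at most 3 genes without overlap in a direction. Without replicate 6 those medians were 0.065, −0.31, −0.36 and −0.13. Cell cycle genes had a median of −0.47 over 28 (−0.12 without replicate 6), with 1 higher and 3 lower without overlap. Of 14 atrial genes 3 were higher and 1 lower without overlap, with a median of 0.12 (−0.15 without replicate 6). Platelet genes numbered 5, with a median of −0.58 (−0.28 without replicate 6).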
